A study of Homo sapiens with 18 samples.

Results

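The ETS genes described here are ETV6, FLI1, ETS1, ETS2, ERG, ELF1, ELK3, GABPA and SPI1, together with GABPB1, which encodes the partner subunit of GABPA and has no ETS domain of its own. They were chosen by name, with earlier results of these data known, and all 10 were found among the 20833 genes of the count table. All 10 passed the filter on low counts. Messenger RNA was counted in MEG-01 cells (labelled Meg01), a leukemic line of megakaryocytic character, either unedited (labelled WT) or labelled ETV6-KO. Each was transduced with a lentiviral vector that was empty (EV), carried wild-type ETV6, or carried ETV6 p.R369W, with harvest on day 3. There were 3 libraries for each of the 6 combinations, numbered in the titles as replicates 2, 3 and 4 (unedited) or 1, 2 and 4 (knockout). All groups carried a lentivirus, so no untransduced cells enter any comparison. The sources used here do not give the promoter of the vectors, the number of knockout clones or the edit itself.

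ETS factors share a winged helix-turn-helix domain that binds DNA around a GGAA core, and the flanking bases and partner proteins set which member acts where. ETV6 is a repressor that forms polymers through its pointed domain and recruits corepressors, and the R369W change lies in its ETS domain. FLI1, ERG and GABPA are activators of megakaryocyte genes, often bound beside GATA1 and RUNX1, while SPI1 (PU.1) drives myeloid and B-lymphoid programmes. Germline changes in ETV6, R369W among them, are known to cause a low platelet count with a predisposition to leukemia.

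Gene reads numbered 12577816 to 18927506 per library. Of all listed reads, 0.527% to 0.809% did not align in the EV libraries, against 0.279% to 0.349% in the others, and the part of this in differences from EV was not tested. In a principal component analysis, 6 libraries lay apart from the rest of their group on the first component, which held 43.3% of the variance: the unedited libraries of replicate 4 with each vector, knockout EV replicate 2, knockout ETV6 replicate 2 and knockout R369W replicate 1. On that component these 6 lay nearer the other genotype than the rest of their group did. With EV, unedited replicate 4 was at -10.8 (others -51.1 and -43.1) and knockout replicate 2 at 6.27 (others 50.4 and 59.3). Leaving them out therefore favours larger differences between genotypes. Same-numbered unedited libraries deviated together, as did same-numbered knockout EV and ETV6 libraries, whereas each knockout R369W library deviated most like EV and ETV6 libraries of another number (replicate 1 like 2, 2 like 4 and 4 like 1). Whether the numbers were exchanged was not tested, and the libraries are called by their titles' numbers. Results are therefore given from a fit without a block. Where it changes a call between vectors within a genotype, the replicate number as a block is given too, except for comparisons with knockout R369W. For comparisons between genotypes the block is given only in the closing section. Of 13 megakaryocyte markers, 6 exceeded 1 CPM (reads scaled to library size) in every library, ITGA2B at 777 to 1629 CPM among them, whereas PF4 had 0 reads in all 18 and PPBP reached at most 0.149 CPM. All 8 erythroid markers were above 1 CPM in every library. The 4 T-cell markers summed to at most 0.0781 CPM. The 5 B-cell markers summed to 1.03 to 16.8 CPM, CD79A reaching 15.7 CPM, PAX5 3.68 CPM and CD79B 2.24 CPM, while MS4A1 had 0 reads in all libraries.

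Promoter windows of 300 bases, from 250 before to 50 after a start site, were found for 7 of the 10 genes in RefSeq (GRCh38.p14), with 14 windows in all. Those of GABPB1 and ETS2 are shown because these genes passed the tests described in what follows, and that of GABPA because its protein is the DNA-binding partner of GABPB1. Each is written 5′ to 3′ on the gene's own strand, and the capitals mark the ETS core GGAA or its complement TTCC.
GABPB1, chr15:50355149-50355448, minus strand: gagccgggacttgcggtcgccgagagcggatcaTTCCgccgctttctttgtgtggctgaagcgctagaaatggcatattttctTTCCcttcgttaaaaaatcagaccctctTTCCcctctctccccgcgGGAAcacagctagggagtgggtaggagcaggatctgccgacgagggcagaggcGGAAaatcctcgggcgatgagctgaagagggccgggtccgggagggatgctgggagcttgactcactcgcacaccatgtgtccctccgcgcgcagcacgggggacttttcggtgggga
GABPA, chr21:25734722-25735021, plus strand: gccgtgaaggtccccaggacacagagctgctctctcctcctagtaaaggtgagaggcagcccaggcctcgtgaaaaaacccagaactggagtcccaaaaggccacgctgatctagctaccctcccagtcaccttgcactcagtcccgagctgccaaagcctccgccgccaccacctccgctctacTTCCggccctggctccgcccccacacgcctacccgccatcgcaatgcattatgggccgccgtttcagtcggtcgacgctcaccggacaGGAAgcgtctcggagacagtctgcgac
ETS2, chr21:38805679-38805978, plus strand: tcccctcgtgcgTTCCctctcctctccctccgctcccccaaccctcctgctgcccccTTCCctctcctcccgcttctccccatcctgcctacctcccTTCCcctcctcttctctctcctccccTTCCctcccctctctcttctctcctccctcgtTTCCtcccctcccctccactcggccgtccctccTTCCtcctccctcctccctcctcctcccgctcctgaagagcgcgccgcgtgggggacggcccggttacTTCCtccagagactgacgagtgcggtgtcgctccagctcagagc
The GABPB1 window held 5 cores, the GABPA window 2 and the ETS2 window shown 7, while the other ETS2 window, which starts at 38804933, held 4. A GGAA core on either strand is common, being present in 95.5% of 35116 RefSeq windows of this length (median 3 per window), so its presence sets these genes apart from few others. The longer ETS site CCGGAAGT, searched on both strands and containing CGGAAG and GGAA, was present in 4.14% of all windows. Of the 14 windows, that of GABPA alone held it, on the minus strand at position -67 from the start site. A match of letters is not a measured binding site.

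ETV6 is the gene the vectors carried. It lies on chromosome 12 from 11649854 to 11895402 on the plus strand (GRCh38, ENSG00000139083). In EV libraries it was counted at 66.0, 77.8 and 145 CPM in unedited replicates 2, 3 and 4 and at 99.5, 39.1 and 117 CPM in knockout replicates 1, 2 and 4. With the ETV6 vector the levels were 2309, 2392 and 2620 CPM in unedited and 1784, 2377 and 1748 CPM in knockout cells. With R369W they were 2053, 2829 and 2742 CPM in unedited and 2089, 1351 and 1636 CPM in knockout cells. Every library with an ETV6-carrying vector thus lay above every EV library, and the unedited and knockout EV libraries overlapped. The count does not show an edit and does not separate vector from cell transcripts, so it offers no check of the knockout label. Per kilobase of exon, ETV6 made up 5.30% ± 1.94 (SD, n = 3) of the summed level of the 28 human ETS genes in unedited EV and 4.48% ± 1.86 in knockout EV cells. With the ETV6 vector its share was 60.2% ± 0.646 and 53.8% ± 5.22, and with R369W 59.4% ± 2.32 and 48.4% ± 5.88. The exon length of the gene was used throughout, and vector transcripts need not have that length. The shares with these vectors are thus not directly comparable with those of EV cells or of other genes. The rise over EV passed the test in each genotype with each vector (edgeR log2 fold changes of 4.31 to 4.72, SE 0.38 to 0.39, adjusted p at most 1.18e-04). R369W and ETV6 libraries differed in ETV6 count by 0.06 on the log2 scale in unedited cells (95% interval -0.65 to 0.76) and by -0.22 in knockout cells (-0.92 to 0.49). Knockout minus unedited EV cells gave -0.18 for ETV6 (SE 0.34, adjusted p = 0.845). It turned to 0.24 without unedited EV replicate 4, to 0.16 without knockout EV replicate 2 and to 0.59 (adjusted p = 0.0425) without the 6 libraries that lay apart. With R369W the difference between genotypes was -0.59 (adjusted p = 0.317), and -0.72 (adjusted p = 0.0172) without those libraries. As those 6 were chosen along the component that parted the genotypes, the adjusted p values without them are no independent test of genotype.

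**Figure D1:**
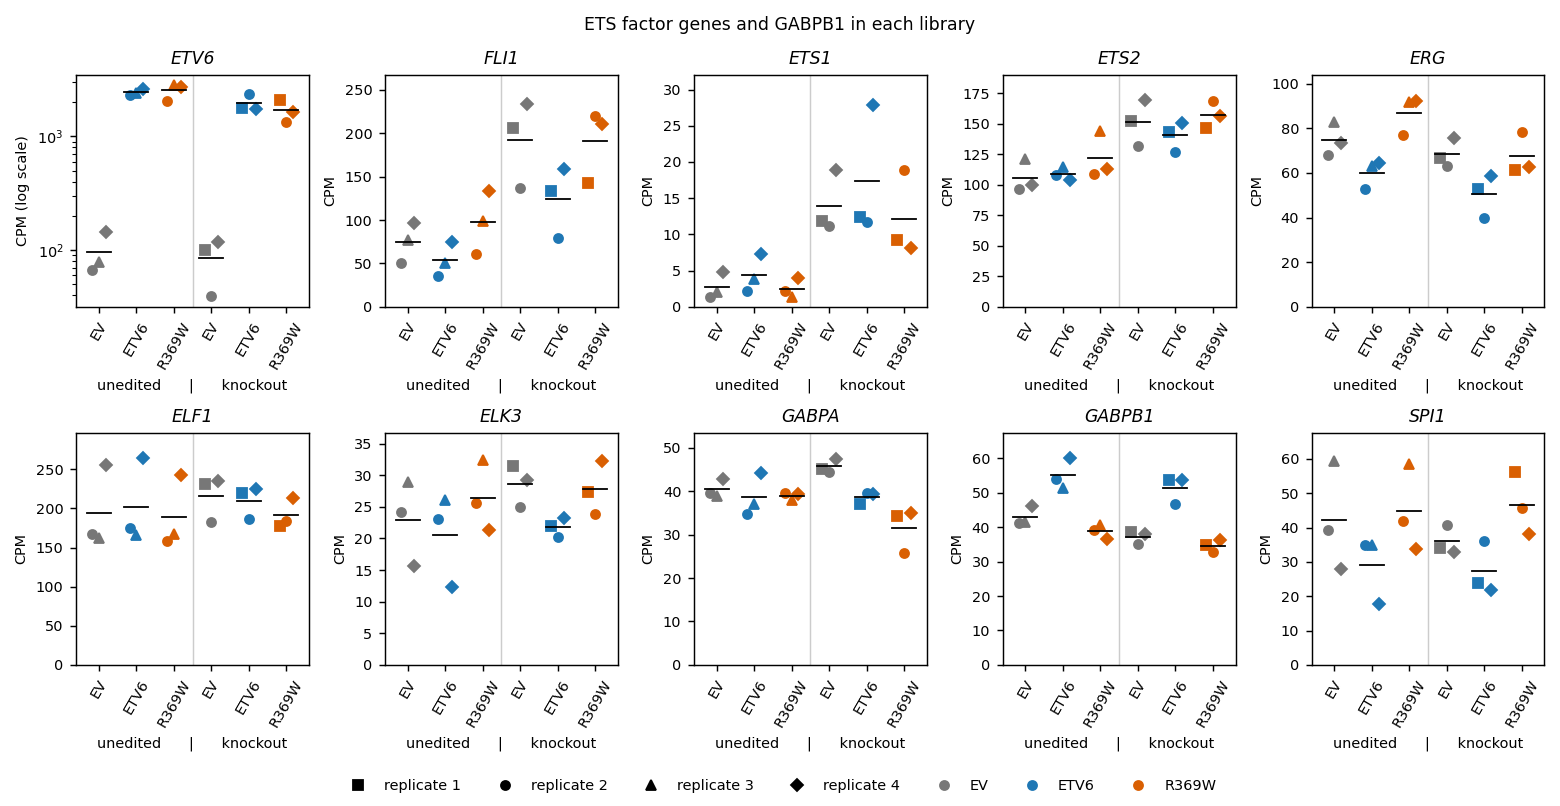
Level of each of the 10 genes in every library in CPM (ETV6 on a log axis, the others from 0), by genotype and vector; symbols show the replicate number, colours the vector and bars the mean of 3 libraries. GABPB1 was at 46.9 to 59.96 CPM in the 6 libraries with the ETV6 vector and at 32.9 to 46.3 CPM in the other 12, while FLI1 and ETS1 were higher in knockout than in unedited cells with each vector.

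GABPB1, the subunit that brings the activation domain to the GABPA complex, was highest with the wild-type vector in each genotype. It lies on chromosome 15 from 50275392 to 50355408 on the minus strand. In unedited cells it was at 41.1, 41.4 and 46.3 CPM with EV (replicates 2, 3 and 4), at 53.9, 51.5 and 59.96 CPM with ETV6 and at 39.2, 40.6 and 36.5 CPM with R369W. In knockout cells it was at 38.5, 35.1 and 38.2 CPM with EV (replicates 1, 2 and 4), at 53.6, 46.9 and 53.7 CPM with ETV6 and at 34.9, 32.9 and 36.1 CPM with R369W. Within each genotype all 3 ETV6 libraries lay above all 3 libraries of the other vectors. In knockout cells GABPB1 rose 1.38-fold with ETV6 over EV (log2 fold change 0.46, SE 0.088, adjusted p = 0.00970). The corresponding rise in unedited cells was 0.36 (SE 0.087, adjusted p = 0.154) without a block and 0.36 (adjusted p = 0.00703) with it. GABPB1 was lower with R369W than with ETV6 in unedited cells (log2 fold change -0.51, SE 0.088, adjusted p = 0.00615) and in knockout cells (-0.57, SE 0.088, adjusted p = 0.00259). In all, 97 genes (0.791% of those tested) passed for this comparison in each of the 2 genotypes. R369W and EV differed by -0.15 (95% interval -0.33 to 0.04) in unedited and by -0.11 (-0.29 to 0.08) in knockout cells, neither past the threshold.

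The dependence of the vector differences of GABPB1 on genotype was tested as an interaction in edgeR, which was 0.10 (SE 0.12, adjusted p = 1.00) for ETV6 against EV and -0.06 (SE 0.12, adjusted p = 1.00) for R369W against ETV6. The comparisons within a genotype share libraries and are not independent of one another. In knockout cells the rise with ETV6 missed the threshold without EV replicate 2, ETV6 replicate 1 or ETV6 replicate 4 (log2 0.42 to 0.44, adjusted p = 0.0531 to 0.0594). The difference of R369W from ETV6 in unedited cells was -0.40 (adjusted p = 0.119) without the 6 libraries that lay apart, whereas those in knockout cells were 0.49 (adjusted p = 0.0338) for ETV6 against EV and -0.65 (adjusted p = 0.0136) for R369W against ETV6. Reads of GABPB1 and of GABPB1-AS1, which overlaps it by 424 exon bases on the other strand, may not be separated, as the sources used here do not give the strand setting of the counting. The same holds for GABPA with ATP5PF (413 shared exon bases, up to 2596 reads), ELF1 with WBP4 (167 bases), FLI1 with SENCR and AP001122.1 (162 and 167 bases) and ELK3 with AC008149.1 (209 bases).

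GABPA, the ETS subunit of the same complex, did not share this pattern. It lies on chromosome 21 from 25734570 to 25772460 on the plus strand. In unedited cells it was at 39.5, 38.9 and 42.9 CPM with EV, 34.7, 37.0 and 44.3 CPM with ETV6 and 39.6, 37.8 and 39.3 CPM with R369W, and the 3 groups overlapped. In knockout cells it was at 45.1, 44.5 and 47.5 CPM with EV, 37.1, 39.5 and 39.2 CPM with ETV6 and 34.3, 25.7 and 34.9 CPM with R369W. The knockout EV libraries were the highest of that genotype and the R369W libraries the lowest, with no overlap between vectors. R369W against EV in knockout cells gave -0.53 (SE 0.11, edgeR adjusted p = 0.126, DESeq2 adjusted p = 0.00298). Its interaction with genotype was -0.48 (SE 0.16, edgeR adjusted p = 1.00). ETV6 against EV in knockout cells gave -0.24 (SE 0.11, adjusted p = 0.391), and -0.24 (adjusted p = 0.0313) with the block in the 6 knockout EV and ETV6 libraries. GABPB2, which encodes the alternative beta subunit, was at 7.92 to 16.1 CPM and passed in none of the 12 tests (smallest adjusted p = 0.246).

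**Figure D2:**
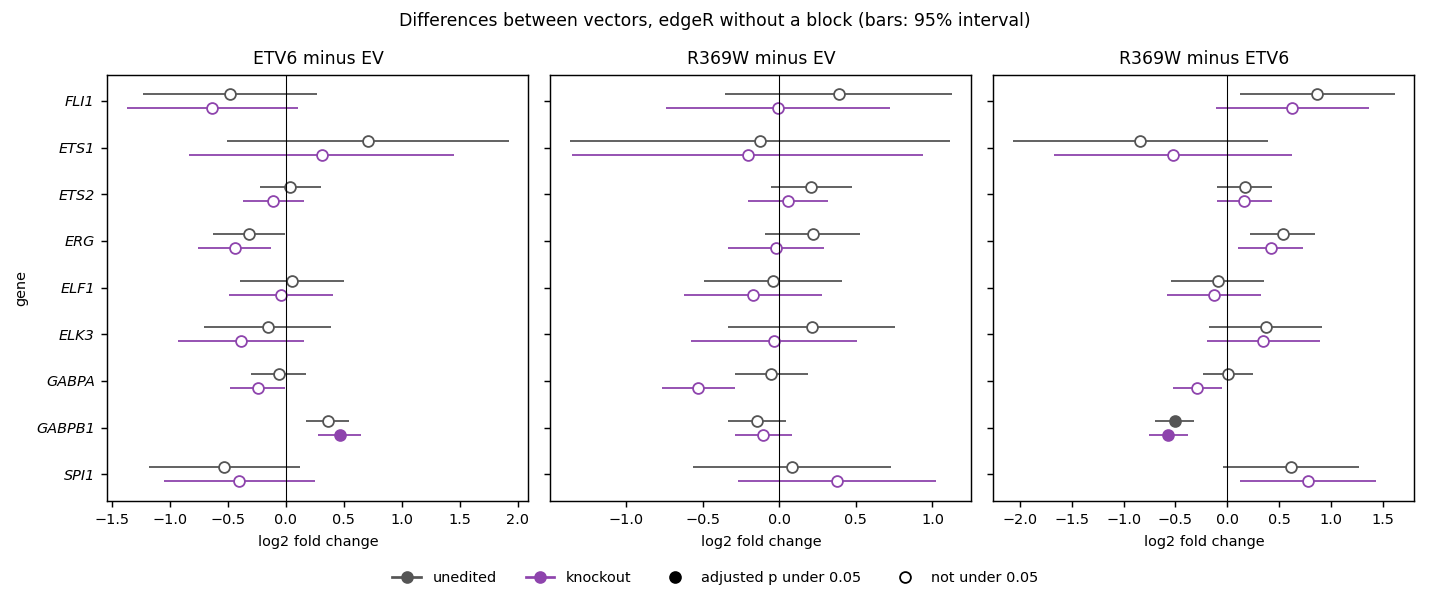
log2 fold change between vectors for the 9 genes other than ETV6, from the edgeR fit without a block, with 95% intervals; grey is unedited and purple knockout, and filled points have an adjusted p under 0.05. Only GABPB1 has filled points, for ETV6 minus EV in knockout cells and for R369W minus ETV6 in each genotype.

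FLI1 and ERG, closely related activators of megakaryocyte genes, were both lower with ETV6 than with EV in every same-numbered pair, and higher with R369W than with ETV6 in every such unedited pair. FLI1 lies on chromosome 11 from 128686535 to 128813267 on the plus strand, and ERG on chromosome 21 from 38380027 to 38661780 on the minus strand. In unedited replicates 2, 3 and 4, FLI1 was at 51.0, 77.01 and 96.0 CPM with EV, 35.6, 50.01 and 74.8 CPM with ETV6 and 60.8, 98.6 and 134 CPM with R369W. Replicate 4 was highest with each vector, so that the groups overlapped although the order of the vectors was the same within each number. The difference of ETV6 from EV was -0.48 (SE 0.35, adjusted p = 1) without a block and -0.50 (SE 0.068, adjusted p = 1.45e-04) with it. That of R369W from EV was 0.39 (SE 0.35, adjusted p = 1) and 0.37 (adjusted p = 0.00526), and that of R369W from ETV6 was 0.87 (SE 0.35, adjusted p = 0.430) and 0.87 (adjusted p = 1.13e-07). Without a block, leaving out 1 library at a time moved the difference of R369W from EV between 0.09 (without R369W replicate 4) and 0.64 (without R369W replicate 2), and that of ETV6 from EV between -0.80 (without ETV6 replicate 4) and -0.26 (without EV replicate 4).

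In knockout replicates 1, 2 and 4, FLI1 was at 206, 137 and 233 CPM with EV, 133, 79.2 and 159 CPM with ETV6 and 143, 220 and 211 CPM with R369W. Every pair was again lower with ETV6 than with EV, with log2 ratios of -0.63, -0.79 and -0.55. The difference was -0.64 (SE 0.35, adjusted p = 0.489) without a block and -0.65 (SE 0.059, adjusted p = 1.28e-05) with the block in the 6 knockout EV and ETV6 libraries. R369W against ETV6 gave 0.63 (adjusted p = 0.498), and R369W against EV was -0.01 (95% interval -0.74 to 0.72), with no settled sign. The interaction for R369W against EV was -0.40 (SE 0.49, adjusted p = 1.00), so the block's call in unedited cells is not shown to differ from knockout cells.

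ERG was at 68.2, 82.8 and 73.3 CPM with EV, 52.6, 63.3 and 64.3 CPM with ETV6 and 77.1, 91.9 and 92.0 CPM with R369W in unedited cells. All 3 ETV6 libraries lay below all others. Against EV the ETV6 difference was -0.32 (SE 0.15, adjusted p = 1) and, with the block, -0.32 (adjusted p = 0.00400). R369W exceeded ETV6 by 0.53 (SE 0.15, adjusted p = 0.119 by edgeR and 0.0287 by DESeq2), or 0.54 (adjusted p = 1.25e-05) with the block. In knockout cells ERG was at 66.6, 63.1 and 75.8 CPM with EV, 52.7, 39.6 and 58.8 CPM with ETV6 and 61.2, 78.4 and 62.6 CPM with R369W, and the ETV6 libraries were again the lowest. There the ETV6 difference from EV was -0.44 (SE 0.15, adjusted p = 0.186) and, with the block, -0.45 (adjusted p = 0.00158). R369W against ETV6 was 0.42 in knockout cells (SE 0.15, adjusted p = 0.232).

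**Figure D3:**
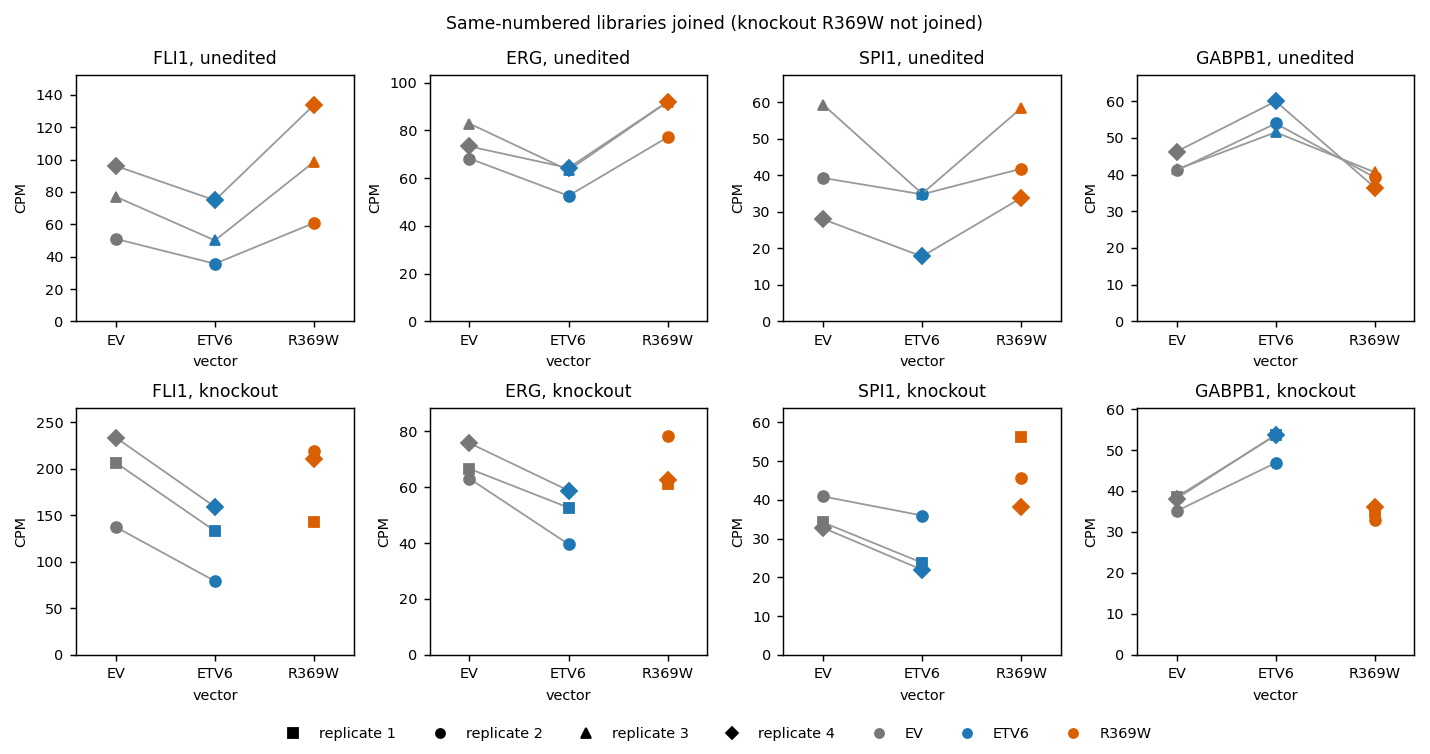
FLI1, ERG, SPI1 and GABPB1 in CPM for each vector, with same-numbered libraries joined by lines in unedited cells (top) and between EV and ETV6 in knockout cells (bottom); knockout R369W libraries, whose numbers did not pair, are not joined. In every joined pair FLI1, ERG and SPI1 are lower with ETV6 than with EV, and GABPB1 is higher.

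SPI1, the myeloid and B-lymphoid ETS factor on chromosome 11 from 47354860 to 47378576 (minus strand), was, like FLI1 and ERG, lowest with ETV6 within each replicate number of unedited cells. In unedited cells it was at 39.3, 59.4 and 28.0 CPM with EV, 34.8, 35.0 and 17.8 CPM with ETV6 and 41.8, 58.4 and 33.8 CPM with R369W. The groups overlapped across numbers, with replicate 4 the lowest for each vector. The difference of ETV6 from EV was -0.53 (SE 0.31, adjusted p = 1), and -0.53 (adjusted p = 0.00535) with the block. That of R369W from ETV6 was 0.61 (SE 0.31, adjusted p = 0.600), and 0.63 (adjusted p = 6.63e-04) with the block. Without a block, the difference of ETV6 from EV ranged from -0.76 (without EV replicate 4) to -0.20 (without EV replicate 3) with 1 library left out. In knockout cells SPI1 was at 34.2, 40.9 and 32.8 CPM with EV, 23.8, 36.0 and 22.0 CPM with ETV6 and 56.2, 45.7 and 38.1 CPM with R369W. The ETV6 difference from EV was -0.40 (SE 0.31, adjusted p = 0.657), and -0.42 (adjusted p = 0.00818) with the block. R369W against ETV6 was 0.78 (SE 0.31, adjusted p = 0.306), with all 3 R369W libraries above all 3 ETV6 libraries.

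ETS1 and ETS2, founding members of the family that respond to Ras signalling, differed chiefly between genotypes. ETS1 lies on chromosome 11 from 128458761 to 128587558 on the minus strand, 98976 bases from FLI1, and ETS2 on chromosome 21 from 38805307 to 38824955 on the plus strand, 143526 bases from ERG, with 0 protein-coding genes between the members of either pair. ETS1 was at 1.29, 1.97 and 4.80 CPM in unedited EV, 2.21, 3.85 and 7.24 CPM with ETV6 and 2.13, 1.35 and 3.96 CPM with R369W. In knockout cells it was at 11.9, 11.1 and 18.9 CPM with EV, 12.4, 11.7 and 27.8 CPM with ETV6 and 9.17, 18.9 and 8.16 CPM with R369W. Every knockout library lay above every unedited library, at 17 to 374 reads per library. ETS2 was at 96.5, 121 and 99.7 CPM in unedited EV, 108, 114 and 104 CPM with ETV6 and 109, 144 and 113 CPM with R369W. In knockout cells it was at 152, 132 and 169 CPM, 143, 127 and 150 CPM, and 146, 169 and 156 CPM. Within each vector the genotypes did not overlap for ETS1, ETS2 or FLI1.

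Between knockout and unedited EV cells, 3 of the 10 genes passed, all higher in knockout, where 4.33% of all 12262 genes tested passed and 3.31% passed higher. FLI1 was 2.58-fold higher (log2 1.36, SE 0.35, adjusted p = 0.0405), ETS1 5.14-fold (2.36, SE 0.58, adjusted p = 0.0301) and ETS2 1.43-fold (0.51, SE 0.12, adjusted p = 0.0280). With R369W, ETS1 alone of the 10 passed, where 4.18% of all genes did (log2 2.28, SE 0.58, adjusted p = 0.0403), and FLI1 was at 0.97 (adjusted p = 0.128) and ETS2 at 0.36 (adjusted p = 0.110). With ETV6, 0 of the 10 passed by edgeR and 2 by DESeq2, where 2.53% and 6.05% of all genes did, and 3 had an unadjusted p under 0.05: ETS1 at 1.96 (adjusted p = 0.0831), FLI1 at 1.21 (0.0872) and ETS2 at 0.37 (0.126). ERG differed between genotypes by -0.13, -0.25 and -0.37 with EV, ETV6 and R369W, none past the threshold, and GABPB1 and SPI1 did not pass with any vector.

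These genotype calls rested on few libraries. With EV, FLI1 missed the threshold on leaving out any one of unedited replicates 2, 3 and 4 and knockout replicates 1 and 4 (log2 1.15 to 1.59, adjusted p = 0.0522 to 0.190). ETS1 missed it without unedited replicate 2 or 3 or knockout replicate 1 or 4 (2.03 to 2.47, adjusted p = 0.0622 to 0.150), and ETS2 without unedited replicate 2 or 4 or knockout replicate 1 or 4 (0.42 to 0.51, adjusted p = 0.0883 to 0.152). With R369W, ETS1 held only without knockout replicate 1 (otherwise 1.80 to 2.79, adjusted p = 0.0506 to 0.187). The 6 libraries that lay apart were chosen after seeing the data and lay nearer the other genotype. Leaving them out favours larger genotype differences, so the adjusted p values without them are no independent test of genotype. Without these 6 the EV differences were 1.78 for FLI1 (adjusted p = 0.00201), 3.23 for ETS1 (0.00514) and 0.56 for ETS2 (0.0300). Then FLI1 and ETS1 also passed with ETV6 (1.77, adjusted p = 0.00280 and 2.72, adjusted p = 0.0113) and with R369W (1.42, adjusted p = 0.00661 and 2.93, adjusted p = 0.00832). The erythroid markers moved with genotype as well, summing to 1432 to 2603 CPM in unedited and 383 to 1285 CPM in knockout EV libraries. The megakaryocyte markers summed to 2039 to 2204 and 2136 to 2403 CPM. The B-cell markers summed to 1.48 to 2.68 and 11.2 to 16.8 CPM. The part of such differences in the ETS genes was not tested, and in these bulk samples fewer cells of a type and less RNA per cell cannot be told apart.

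Vector differences of ETS1 and ETS2 did not pass without a block. With the block, ETS1 was lower with R369W than with ETV6 in unedited cells (log2 -0.83, SE 0.24, adjusted p = 0.0278, against -0.84 and adjusted p = 0.810 without it). Without the block it ranged from -1.35 (without R369W replicate 4) to -0.29 (without ETV6 replicate 4) with 1 library left out. ETS2 differed between vectors by at most 0.21 within a genotype.

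ELF1 and ELK3 completed the set. ELF1, an activator broadly used in blood cells, lies on chromosome 13 from 40932028 to 41061440 (minus strand) and showed the replicate number more than the vector. In unedited replicate 4 it was at 243 to 264 CPM with every vector, and in replicates 2 and 3 at 158 to 175 CPM. The 9 knockout libraries ranged from 178 to 235 CPM. It passed in none of the 9 comparisons between groups (log2 differences -0.17 to 0.15). Without the 6 libraries that lay apart it was 0.50 higher in knockout EV cells (adjusted p = 0.00735) and 0.38 higher in knockout ETV6 cells (adjusted p = 0.0324). Those 6 held the unedited libraries highest in ELF1, and knockout libraries at 178 to 186 CPM against 184 to 235 CPM in the other knockout libraries. Their removal thus raises the difference by the choice itself, and these adjusted p values are no independent test of genotype. ELK3, a ternary complex factor that acts with SRF, lies on chromosome 12 from 96194382 to 96269835 (plus strand). It was at 24.1, 28.95 and 15.6 CPM in unedited EV, 23.1, 26.1 and 12.3 CPM with ETV6 and 25.6, 32.4 and 21.4 CPM with R369W, lowest in replicate 4 with each vector. In knockout cells it was at 31.5, 24.9 and 29.3 CPM, 22.0, 20.2 and 23.3 CPM, and 27.3, 23.9 and 32.3 CPM, with the ETV6 libraries the lowest. It passed only with a block, for R369W against ETV6 in unedited cells (0.40, adjusted p = 0.0188, against 0.37 and adjusted p = 0.813) and for ETV6 against EV in knockout cells (-0.38, adjusted p = 0.0105, against -0.39 and adjusted p = 0.590).

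Counted over the 10 genes, ETV6 against EV called 1 in unedited cells, ETV6 itself, where 0.302% of all genes passed, and 2 in knockout cells, ETV6 and GABPB1, where 1.83% did. R369W against EV called ETV6 alone, where 0.0245% passed in unedited and 0.0571% in knockout cells. R369W against ETV6 called GABPB1 alone, where 1.20% and 1.23% passed. With the block the counts were 5, 2 and 6 in unedited cells for ETV6 against EV, R369W against EV and R369W against ETV6, where 8.15%, 2.14% and 16.9% of all genes passed. For ETV6 against EV in the 6 knockout libraries 7 passed, where 24.7% did. The block called more members and more of all genes alike. Without any model, 3, 2 and 2 of the 10 genes did not overlap between groups in the 3 unedited comparisons, where 8.84%, 6.96% and 12.8% of all genes did not. In the knockout comparisons 5, 2 and 5 did not, where 21.1%, 18.7% and 16.3% of all genes did not. Between genotypes the counts were 5 with EV, 3 with ETV6 and 5 with R369W, where 22.5%, 22.7% and 22.5% of all genes did not overlap. The median log2 change of the 10 genes for ETV6 against EV was -0.01 in unedited cells and -0.18 in knockout cells, against 0.01 and -0.00 over all genes, and the medians of their sizes were 0.34 and 0.39, against 0.11 and 0.16. The 10 genes were chosen with earlier results of these data known, and they include ETV6, the gene the vectors carried. Counts and medians beside those of all genes are therefore descriptions and do not measure an excess among ETS genes. In the 3 interactions 0 members passed by edgeR, DESeq2 or limma-voom, where 0.0245%, 0.0408% and 0.00% of all genes passed by edgeR, and 1 had an unadjusted p under 0.05, GABPA.

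The level of the family could be compared between genes per kilobase of exon in unedited EV cells. ELF1 was highest at 44.9 ± 12.1 CPM per kilobase (SD, n = 3), above the range of the next gene, ELF4, at 27.8 ± 2.02. ERF followed at 27.2, ELK1 at 24.5, ETS2 at 23.0 ± 2.90, SPI1 at 20.4 ± 7.69 and ETV6 at 13.6 ± 6.04, each overlapping its neighbour. ERG at 9.85 ± 0.980, FLI1 at 9.14 ± 2.77 and GABPA at 7.44 ± 0.398 also overlapped their neighbours, and ELK3 stood at 4.93 ± 1.45. ETS1 was at rank 19 of 28, at 0.376 ± 0.261. The 9 ETS genes described made up 50.3% to 82.5% of the family's summed level across the 18 libraries, a share that includes ETV6 reads from the vectors.

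**Figure D4:**
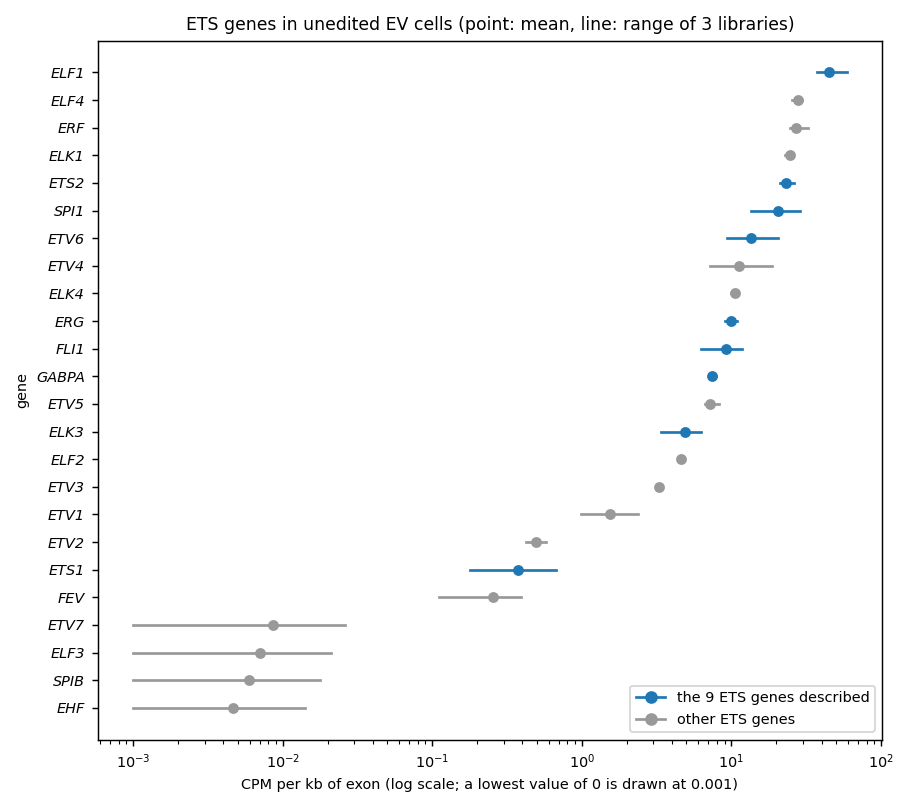
Mean level per kilobase of exon (point) and range of 3 libraries (line) of the ETS genes with any read in unedited EV cells, on a log axis; the ETS genes described in detail are blue. ELF1 is highest at 44.9 and ETS1, at 0.376, lies lowest of the genes in blue.

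Of the 19 other human ETS genes, 11 passed the filter and 0 of them passed in any of the 12 tests by edgeR, or by limma-voom. An unadjusted p under 0.05 was found in 25 of their 132 edgeR tests, and in 9.90% of the tests of all genes. The 132 tests repeat the same 11 genes, and some of the 25 came from ETV2 and FEV, with medians of 0.945 and 0.577 CPM. The 25 are therefore a description and do not measure an excess among these genes. The 12 tests share libraries and are not independent of one another. DESeq2 called ELF2 for ETV6 against EV in knockout cells, where it called 3.28% of all genes, and ELK1 between genotypes with EV, where it called 7.30%. It called FEV and ETV3 between genotypes with R369W, where it called 8.25%. FEV had 277 reads over all 18 libraries and averaged 0.37 CPM in unedited and 2.14 CPM in knockout R369W cells. Its call thus lies near the floor. The smallest edgeR adjusted p was 0.0735, for ETV3, a repressor, in knockout against unedited cells with R369W (on average 19.7 and 24.7 CPM). ELK1, a ternary complex factor, averaged 83.2 CPM in unedited EV and 57.7 CPM in knockout EV cells (adjusted p = 0.0803). ETV7, the closest relative of ETV6, was not tested for low counts, with at most 0.901 CPM in any library. ELF5 and SPIC had 0 reads in all 18 libraries, which allows up to 0.239 CPM in the shallowest.

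Among 12 corepressors and cofactors of ETV6, all tested, HDAC3 alone passed, a histone deacetylase that ETV6 recruits through NCOR complexes. The calls were between genotypes, where 4.33% of all genes passed with EV, 2.53% with ETV6 and 4.18% with R369W. A single gene called in a list of this size is a description and not a result about corepressors. HDAC3 averaged 166 ± 13.4 CPM in unedited EV and 239 ± 8.03 CPM in knockout EV cells (log2 0.53, SE 0.099, adjusted p = 0.00579), and was 0.41 higher in knockout cells with ETV6 (adjusted p = 0.0438) and with R369W (0.0329). Its level did not pass between vectors. The medians of the 12 between genotypes were -0.04, 0.02 and -0.01. Of 12 partners of ETS factors in megakaryocytes, 11 were tested and GFI1B, a repressor needed for erythroid and megakaryocytic development, alone passed. It rose with ETV6 over EV in knockout cells from 88.0 ± 5.84 to 135 ± 16.0 CPM (log2 0.62, SE 0.10, adjusted p = 0.00403). In that comparison 1.83% of all genes passed. GATA1, RUNX1, TAL1 and the other tested partners did not pass in any of the 12 tests.

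Of 16 genes known to be regulated by GABP, such as mitochondrial respiratory and transcription factors, 1 passed between vectors, IL16, a T-cell chemoattractant. For ETV6 against EV in knockout cells 1.83% of all genes passed. For R369W against ETV6 the shares were 1.20% in unedited and 1.23% in knockout cells. IL16 was lower with ETV6 than with EV in knockout cells, at 69.7 ± 3.24 against 102 ± 10.9 CPM (log2 -0.55, SE 0.10, adjusted p = 0.00723), and higher with R369W than with ETV6 in unedited (0.48, adjusted p = 0.0259) and knockout cells (0.49, adjusted p = 0.0245). This is opposite in sign to GABPB1 in the same comparisons. The medians of the 16 lay between -0.04 and 0.09 in the 9 comparisons between groups, against -0.01 to 0.01 over all genes. Of 15 genes of ternary complex factors and SRF, 14 were tested and SPRED1, an inhibitor of Ras signalling, alone passed. It was lower with R369W than with ETV6 in unedited (log2 -0.70, SE 0.16, adjusted p = 0.0391) and knockout cells (-0.89, SE 0.16, adjusted p = 0.00798), and lower in knockout than unedited cells with R369W (-0.68, adjusted p = 0.0274). Between genotypes with R369W, 4.18% of all genes passed. As the only genes called, IL16 and SPRED1 are descriptions and not results about their lists.

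Of 15 megakaryocyte genes bound by ETS factors, 11 were tested. NBEAL2, needed for platelet alpha granules, passed lower with ETV6 and GP6, the platelet collagen receptor, passed higher with R369W than with ETV6 in unedited cells, at 170 ± 50.9 against 40.7 ± 12.7 CPM (log2 2.06, SE 0.37, adjusted p = 0.00773). In knockout cells GP6 averaged 196 CPM with EV, 95.8 CPM with ETV6 and 198 CPM with R369W, and no vector difference passed. NBEAL2 was 0.98 higher with R369W than with ETV6 in unedited cells (adjusted p = 1.62e-04) and 0.83 higher in knockout cells (7.80e-04). For R369W against ETV6, 1.20% of all genes passed in unedited and 1.23% in knockout cells. Between genotypes NBEAL2 passed with ETV6 (0.45, adjusted p = 0.0440), where 2.53% of all genes passed. GP1BB, a subunit of the von Willebrand factor receptor, passed with R369W (adjusted p = 0.0337), where 4.18% did. It averaged 0.210 CPM in unedited and 1.77 CPM in knockout R369W cells. The unedited level lay near the floor, where a count of 0 allows up to 0.158 to 0.239 CPM. GP1BB passed the filter on low counts through the knockout groups, in which it was high. Its adjusted p is therefore no independent test of genotype.

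Of 18 myeloid genes known to be regulated by SPI1, 14 were tested; a gene low in most groups passes the filter through the group in which it is high, so the counts describe those tested only. With ETV6 against EV, 3 were lower in unedited (CD33, NCF4 and ITGAM) and 4 in knockout cells (the same 3 and ITGB2), where 0.302% and 1.83% of all genes passed in either direction. The medians were -0.54 and -1.10, against 0.01 and -0.00 over all genes. With R369W against ETV6, 4 and 3 were higher, where 1.20% and 1.23% of all genes passed. NCF4, a subunit of the phagocyte oxidase, was at 166 CPM (147 to 187) with EV, 100 ± 7.27 CPM with ETV6 and 205 ± 21.5 CPM with R369W in unedited cells, and at 191 ± 6.59, 106 ± 3.76 and 222 ± 20.02 CPM in knockout cells. Its change with ETV6 was -0.73 (SE 0.10, adjusted p = 0.00452) and -0.86 (SE 0.10, adjusted p = 1.96e-04). FCER1G, the gamma chain of Fc receptors, was higher with R369W than with ETV6 in unedited cells (log2 2.04, SE 0.30, adjusted p = 0.00167). In knockout against unedited EV cells LYZ was lower (-0.71, adjusted p = 0.0255), and ITGB2, CTSG and CSF3R, each below 1.17 CPM in every unedited EV library, were higher. ITGB2 was at 56.0 ± 29.7 CPM in knockout EV cells (adjusted p = 6.61e-06), CTSG at 2.52 ± 2.07 CPM (0.0152) and CSF3R at 1.08 ± 0.888 CPM (0.0310). CTSG and CSF3R lay near the floor, where a count of 0 allows up to 0.158 to 0.239 CPM. Across the knockout EV libraries CSF3R ran from 0.0762 to 1.77 CPM and CTSG from 1.15 to 4.90 CPM. Of the defining granulocyte markers, ELANE had 0 reads in all libraries and MPO at most 0.156 CPM. The summed granulocyte and monocyte markers were at 120 to 172 CPM in unedited EV and 65.7 to 75.9 CPM in unedited ETV6 libraries, and at 106 to 169 and 41.4 to 47.7 CPM in knockout cells. Of these 7 markers only ITGAM and LYZ exceeded 1 CPM in every library, and both are also in the SPI1 list. The sum therefore largely repeats these genes. The part of the markers in the differences of SPI1 was not tested.

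For the genes that passed between groups, the most similar patterns were sought among 10746 genes, as Pearson correlations of log2 CPM over the 18 libraries. These are descriptions: the libraries share groups, so any gene that differs between the same groups correlates. FLI1 was nearest to DOCK8 (r = 0.986), HBEGF (0.980) and PTTG1IP (0.971), ETS1 to ASIC1 (0.960), MMP2 (0.958) and SEPTIN5 (0.952), and ETS2 to RYR3 (0.953), NLRC5 (0.941) and ARF3 (0.940). GABPB1 was nearest to GNPNAT1 (0.894), GADD45A (0.887) and PABPC1L (0.871). ETV6 had the loosest match, UQCR11 (0.772), POLR2G (0.771) and TMEM208 (0.760). With Spearman correlation DOCK8 stayed nearest to FLI1 (0.975), whereas MMP2 was nearest to ETS1 (0.957), CPNE2 to ETS2 (0.961), SLC20A1 to GABPB1 (0.913) and SF3B6 to ETV6 (0.761).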

How the data were processed

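Messenger RNA was sequenced from 18 MEG-01 libraries, 3 in each of 6 groups. The deposited values are raw read counts per gene, which the authors made with HISAT2, SAMtools and HTSeq on GRCh38, per the submitters' processing notes. Per the labels, TRIzol RNA went into TruSeq stranded mRNA libraries. The sources used here do not give the annotation, tool versions or strand setting. Of 20833 identifiers, 20801 took symbols from a gene name table and 31 from GENCODE release 29, which also gave positions and exon lengths. Reads given to no gene (34.4% to 41.6%) were left out. A count of 0 allows up to 0.158 to 0.239 CPM (3 reads), for counting error only, since reads carry no molecular identifiers.

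Counts were fitted with edgeR 4.0.16 (R 4.3.3): filterByExpr (12262 genes), TMM, 1 mean per group over all 18 libraries, two-sided quasi-likelihood F tests, and Benjamini-Hochberg adjustment over every tested gene (threshold 0.05). The 9 comparisons of groups and 3 interactions came from this fit. CPM of tested genes use TMM; those of markers and untested genes use total gene reads. SE is the log2 fold change over the square root of F. Permuting 3 against 3 libraries exactly gives p = 0.1 at the least and was not done. DESeq2 1.42.0, limma-voom (limma 3.58.1), other scaling, filters, blocks and left-out libraries were tried, and the script was tested on simulated data. The 6 libraries lying apart were chosen after seeing the data, and they lay nearer the other genotype on the first component.

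Replicate numbers come from the titles, which do not say what they stand for. Across genes, deviations of same-numbered unedited libraries correlated at 0.695 to 0.856 (others -0.583 to 0.0424) and those of knockout EV and ETV6 libraries at 0.763 to 0.847 (others -0.619 to -0.133). Those of knockout R369W correlated with the other vectors at -0.581 to -0.153 under the same number, but at 0.739 to 0.872 with 1 differently numbered EV and ETV6 library each (R369W 1 with 2, 2 with 4, 4 with 1), so no block is used there.

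All 10 members are named. Of the other lists, genes past the threshold are named, up to 6 per list by adjusted p, except some that are not reported here, and for each called member the 3 nearest patterns. Members and lists were chosen with earlier results of these data known. Promoter sequences are RefSeq's (GRCh38.p14).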

Additional observations from a re-analysis of the deposited data

How the results depend on the processing

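Of the 10 genes, the number past the threshold changed as follows. With DESeq2 it was 2 for ETV6 against EV and 2 for R369W against ETV6 in unedited cells, 2 for R369W against EV in knockout cells and 2 between genotypes with ETV6. With only the groups compared in the fit it was 0 for R369W against ETV6 in unedited cells, and in knockout cells 1 for ETV6 against EV, 0 for R369W against EV and 0 for R369W against ETV6. It was 0 between genotypes with EV and 0 with R369W, and limma-voom also gave 0 with R369W. The replicate block gave 5, 2 and 6 for ETV6 against EV, R369W against EV and R369W against ETV6 in unedited cells. It gave 7 for ETV6 against EV in the 6 knockout libraries, and 1 for ETV6 against EV and 0 for R369W against EV when forced on all 9 knockout libraries, where the numbers do not pair. A block over all 18 libraries gave 3 between genotypes with ETV6 and 3 with R369W, in each case FLI1, ETS1 and ETS2. With ETV6 their edgeR adjusted p values with this block were 0.0107, 0.0312 and 0.0196. Same-numbered libraries of different genotypes correlated at -0.346 to 0.467. Without the 6 libraries that lay apart the number was 0 for R369W against ETV6 in unedited cells, and between genotypes 5 with EV, 3 with ETV6 and 3 with R369W. Leaving out each library in turn gave 0 to 3 between genotypes with EV, 0 to 1 with R369W and 1 to 2 for ETV6 against EV in knockout cells.

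Of the 90 differences of the 10 genes in the 9 comparisons, 28 turned sign in at least 1 setting, none larger than 0.31 in size or with an adjusted p under 0.592. ETV6 between genotypes with EV (-0.18) was 0.59 without the 6 libraries and -0.47 to 0.24 with 1 library left out. ETV6 for R369W against ETV6 in unedited cells (0.06) was -0.0257 to 0.19 with 1 left out, the lowest without R369W replicate 3. FLI1 for R369W against EV in knockout cells (-0.0108) was 0.0323 with the replicate block forced on 9 libraries and -0.203 to 0.161 with 1 left out. The block over all 18 libraries also turned SPI1 between genotypes with EV (from -0.23 to 0.0309) and with ETV6 (-0.10 to 0.129), and ELF1 with R369W (0.0189 to -0.0734). ELF1 between genotypes with ETV6 (0.06) was -0.0351 with the replicate block over all 18 libraries and -0.0667 to 0.30 with 1 left out.

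Over all genes, the counts past the threshold moved by more than 1.5 times under several settings. DESeq2 called 91, 13 and 287 in the unedited comparisons (37, 3 and 147 by edgeR), 401, 195 and 362 in the knockout comparisons (224, 7 and 151), and 893, 741 and 1010 between genotypes (531, 310 and 513). Only the groups compared gave 2, 1 and 35, then 131, 0 and 73, then 211, 80 and 89. Blocks gave 956, 251 and 1980 in unedited cells, 2904 in the 6 knockout libraries, 97, 0 and 75 in the 9, and 979, 1002 and 1591 between genotypes. Without the 6 libraries, a choice that favours larger differences between genotypes, 1818, 1349 and 1725 passed between genotypes. limma-voom called 161 with ETV6. ETS1, at 17 to 374 reads per library, is the member that depth limits most.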
